A study of Mus musculus with 4 samples.

Results

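Accessible chromatin was described at 7 genes of the tendon programme and its matrix in MC38/gp100 cells: the transcription factors Mkx and Scx, and the small leucine-rich proteoglycans Fmod, Prelp, Lum, Dcn and Bgn. The genes were chosen by earlier results on these same libraries, in which Mkx and Fmod held strong losses, so the size and direction of their changes describe the choice and were given no test. A peak was assigned to a gene when its centre lay inside the gene or within 1 kb of its end, or when the nearest end of any protein-coding gene belonged to it. By this rule 55 of the 97699 peaks were members: 22 at Dcn, 11 at Prelp, 8 at Fmod, 7 at Bgn, 5 at Mkx, 2 at Scx and none at Lum.

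MC38/gp100 is a mouse colon adenocarcinoma line that carries the melanocyte antigen gp100. The cells were grown in RPMI medium with serum for 5 days, either with the solvent DMSO (2 libraries) or with 1 µM GSK3368712, an inhibitor of the type I protein arginine methyltransferases (2 libraries), and their open chromatin was mapped by ATAC-seq, which cuts accessible DNA with an adapter-loaded transposase. The comparison asks where accessibility differs between inhibitor and solvent. Both groups are of 1 cell line, and whether its libraries came from separate cultures is not stated. The p-values therefore hold for the spread among these libraries, which could be of technical origin.

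Mkx (Mohawk) is a homeobox factor of the TALE class and Scx (scleraxis) a basic helix-loop-helix factor, and in the mouse both are needed for normal tendon, where they act on collagen and proteoglycan genes. The proteoglycans bind collagen and set how its fibrils form and widen: Fmod, Prelp and Lum belong to the class that typically carries keratan sulfate or, in Prelp, a heparin-binding stretch, and Dcn and Bgn to the class that carries chondroitin or dermatan sulfate. Type I arginine methyltransferases, chiefly PRMT1, place asymmetric dimethyl marks on histones and on many RNA-binding proteins. Accessibility is not transcription, and RNA was not analysed here.

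Of the 7 genes, RefSeq promoters (GRCm38.p6, from 250 bases before to 50 after the start site) were matched for Fmod, Prelp and Bgn. They are shown because the changes at Fmod and Prelp lay away from these stretches. The Prelp start site used by this table lies 8.7 kb inside the gene as annotated, so its promoter is an internal one. No peak overlapped the Fmod or the Prelp promoter, and their start sites were 2221 and 2841 bp from the nearest peak, which in both cases was too weak to be tested. A peak covered 16 bases of the Bgn promoter. Of all 21263 protein-coding promoters, 51.3% lay under a peak by at least 1 base. Each sequence runs 5′ to 3′ in the direction of its gene, and capitals mark matches to the motifs searched.
Fmod, chr1:134037004-134037303, plus strand: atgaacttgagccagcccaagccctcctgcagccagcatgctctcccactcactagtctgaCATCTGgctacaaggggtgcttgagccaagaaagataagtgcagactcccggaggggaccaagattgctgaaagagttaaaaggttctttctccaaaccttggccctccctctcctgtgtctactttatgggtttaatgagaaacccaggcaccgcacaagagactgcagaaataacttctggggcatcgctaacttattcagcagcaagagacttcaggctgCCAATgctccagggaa
Prelp, chr1:133921352-133921651, minus strand: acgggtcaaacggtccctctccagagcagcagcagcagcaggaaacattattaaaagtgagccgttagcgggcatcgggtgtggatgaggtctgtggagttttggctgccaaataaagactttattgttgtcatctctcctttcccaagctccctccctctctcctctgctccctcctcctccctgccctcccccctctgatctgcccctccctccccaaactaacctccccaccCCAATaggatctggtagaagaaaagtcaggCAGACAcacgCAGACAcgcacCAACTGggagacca
Bgn, chrX:73483351-73483650, plus strand: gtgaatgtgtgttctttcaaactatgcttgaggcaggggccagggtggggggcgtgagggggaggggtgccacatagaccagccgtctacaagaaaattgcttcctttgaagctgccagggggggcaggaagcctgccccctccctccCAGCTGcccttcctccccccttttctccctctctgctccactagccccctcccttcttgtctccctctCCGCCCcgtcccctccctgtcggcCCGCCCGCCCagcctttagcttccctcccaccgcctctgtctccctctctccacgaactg

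The promoters were searched for 9 motifs on both strands. CANNTG, the E-box bound by helix-loop-helix factors such as Scx, occurred once in each of the 3 promoters and in 69% of all promoters. The CCAAT box was found in Fmod and Prelp and in 38.2% of all promoters. GGGCGG, the GC box, had 3 matches in Bgn, of which the last 2 overlap, and occurred in 46.2% of all promoters. CAGACA, a Smad-type motif, had 2 matches in Prelp and occurred in 18.9% of all promoters. The other motifs had no match in the 3 sequences. They were the TATA box TATAAA, held by 12.6% of all promoters, the AP-1 motif TGANTCA (6.99%), the cAMP response element TGACGTCA (2.23%), the TEAD motif GGAATG (13.6%) and the TALE-type motif TGACAG (18.7%). These are letter matches in this window only. The bases under the changed peaks themselves were not analysed here, since they need the genome sequence.

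Over the whole table, 74791 peaks were tested, meaning that their deposited adjusted p was under 1, and the groups' normalised reads over all peaks summed to 25913087 with DMSO and 24524730 with inhibitor. The depth of each library is not given in the sources used here. Ends of marker genes of the labelled tissue were mostly closed: 2 of 12 colon epithelium genes (Krt8 and Cldn7) had a peak within 1 kb of an end, and Epcam and Cdh1, which define epithelium, had none there. Of 10 fibroblast genes 6 had one (Pdgfrb, Col1a1, Col1a2, Vim, S100a4 and Acta2), and of 9 endothelium and blood genes 5 had one, with none at Pecam1 or Ptprc. The end peaks of Cldn7 and Acta2, at 23.3 and 23.6 reads with DMSO, were too weak to be tested. Away from its ends Cdh1 had called losses, 8.91 kb inside (-0.92, adjusted p = 0.000315) and 14.5 kb outside (-0.93, adjusted p = 0.00129), in the authors' deposited table. Over the colon list 4 of 43 tested peaks were lower (9.3% against 6.09% of all) and 0 higher. Over the fibroblast list 1 of 75 was lower (1.33%) and 2 higher (2.67% against 0.492% of all). Over the endothelium and blood list 3 of 42 were lower (7.14%) and 0 higher. The summed end-peak reads of these lists went from 518 to 550, from 6963 to 7071 and from 1036 to 947 between DMSO and inhibitor, log2 ratios of 0.09, 0.02 and -0.13. The part of other cell types in the results was not tested.

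With inhibitor, 6 of the 48 tested member peaks were lower and 3 were higher at an adjusted p under 0.05 in the authors' deposited table. That was 12.5% lower against 6.09% of all tested peaks, and 6.25% higher against 0.492%. The shares depend on the scaling: with folds scaled to the summed reads, 10.4% of member peaks and 3.61% of all tested peaks were lower and 6.25% and 0.834% higher, and with the median fold 10.4% and 3.81%, and 6.25% and 0.774%. Since the genes were chosen on this contrast, nothing is read from the difference between those shares. The losses were at Mkx, Fmod, Prelp (3) and Dcn, and the gains at Prelp and Dcn (2), whereas Scx and Bgn had no called peak. In the authors' deposited table the other 39 tested peaks ranged from -0.85 to 0.43 in log2 fold change. At an unadjusted p under 0.05 the counts were 10 lower and 3 higher. The share of all tested peaks at that threshold is not given here, so nothing is read from these counts. All log2 fold changes here are inhibitor minus DMSO.

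Of the 48 tested peaks, 32 had a negative and 16 a positive fold, with a median of -0.14 against -0.07 for all tested peaks in the authors' deposited table. Peaks called per gene gave 4 of 6 genes with a lower peak, against 18.6% of 16815 protein-coding genes with a tested peak. A higher peak was held by 2 of 6, against 2.17%, and both directions by Prelp and Dcn, against 0.868%. Genes with many peaks have more chances of a call, and these shares do not take the number of peaks into account. All 9 called peaks had been called as peaks in all 4 libraries, as had 42 of the 55 members.

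**Figure D1:**
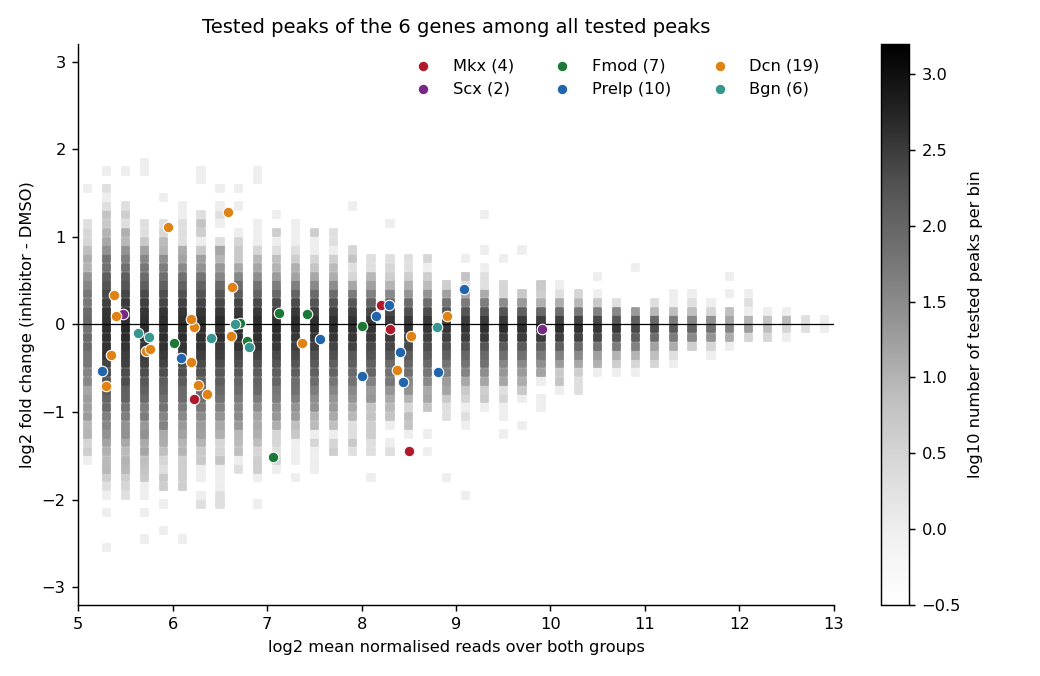
Each coloured point is 1 tested peak of the 6 genes that have peaks, placed by its mean level over both groups (x axis, log2 normalised reads) and its log2 fold change, inhibitor minus DMSO (y axis), over grey bins that show how many of all 74791 tested peaks fall there. The Mkx peak at -1.45 and the Fmod peak at -1.51 lie at the lower rim of the cloud for their level, 2 Dcn peaks at 1.11 and 1.28 at its upper rim, and most others within it.

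The called peaks lay away from gene ends. Within 1 kb of a gene end 0 of 5 tested member peaks was lower and 0 higher, where all peaks of that place had 1.54% lower and 0.252% higher. Inside genes, beyond 1 kb from an end, 2 of 10 were lower and 0 higher (all such peaks: 6.7% and 0.446%). Between genes 4 of 33 were lower and 3 higher (all such peaks: 7.39% and 0.65%). In the authors' deposited table the fold of the 5 end peaks ranged from -0.38 at Prelp to 0.22 at Mkx.

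Mkx had 1 loss, and it stood alone. The gene spans 69.8 kb (chromosome 18, 6934966 to 7004779, mm10), and the lost peak (6959682 to 6960377) lay 25.1 kb inside it. Its group mean fell from 530 normalised reads with DMSO to 194 with inhibitor, a log2 fold change of -1.45 (derived SE 0.14, 95% interval -1.73 to -1.17, adjusted p = 4.35e-20) in the authors' deposited table. By p-value it was the peak of rank 7 in the whole table.

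Neither peak beside the Mkx loss passed the test. The one 15.4 kb to the left had 320 and 309 reads with DMSO and inhibitor, and a log2 fold change of -0.05 (adjusted p = 0.947) in the authors' deposited table. The one 44.6 kb to the right, centred 115 bp inside the right end of the gene, had 272 and 317 reads and a log2 fold change of 0.22 (derived SE 0.15, adjusted p = 0.526) in the authors' deposited table. The right end of Mkx was thus open with and without inhibitor, and the loss was seen at 1 of the 3 peaks inside the gene.

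Outside Mkx, a weaker peak 41.1 kb past the right end had 96.3 reads with DMSO and 53.4 with inhibitor. Its log2 fold change was -0.85 (derived SE 0.29, 95% interval -1.42 to -0.28) with an adjusted p of 0.0547, just short of the threshold, in the authors' deposited table. It lies in the long noncoding RNA gene Gm46633, which begins 1.34 kb past Mkx. The remaining peak, 36.8 kb left of the gene, was too weak to be tested, at 30.5 and 23.3 reads. Summed over its 5 peaks, the Mkx group means were 1249 and 897 reads, a log2 ratio of -0.48. This rested on the lost peak, for which Mkx was chosen: without it the sums were 719 and 703 reads, a log2 ratio of -0.03.

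Scx, the other tendon transcription factor, had no called peak and none within 1 kb of its ends. This short gene (2.06 kb, chromosome 15, 76457411 to 76459468) lies within Bop1, a ribosome biogenesis gene, and so do both its peaks. The stronger one, 2.04 kb from Scx, had 982 reads with DMSO and 949 with inhibitor, and its log2 fold change of -0.05 (95% interval -0.24 to 0.14, adjusted p = 0.901) in the authors' deposited table had the narrowest error of all member peaks (derived SE 0.098). The weaker one, 1.32 kb away, had 42.5 and 46.2 reads and a log2 fold change of 0.12 (adjusted p = 0.944) in the authors' deposited table. Either peak may belong to Bop1 rather than Scx, since assignment here is by distance alone.

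**Figure D2:**
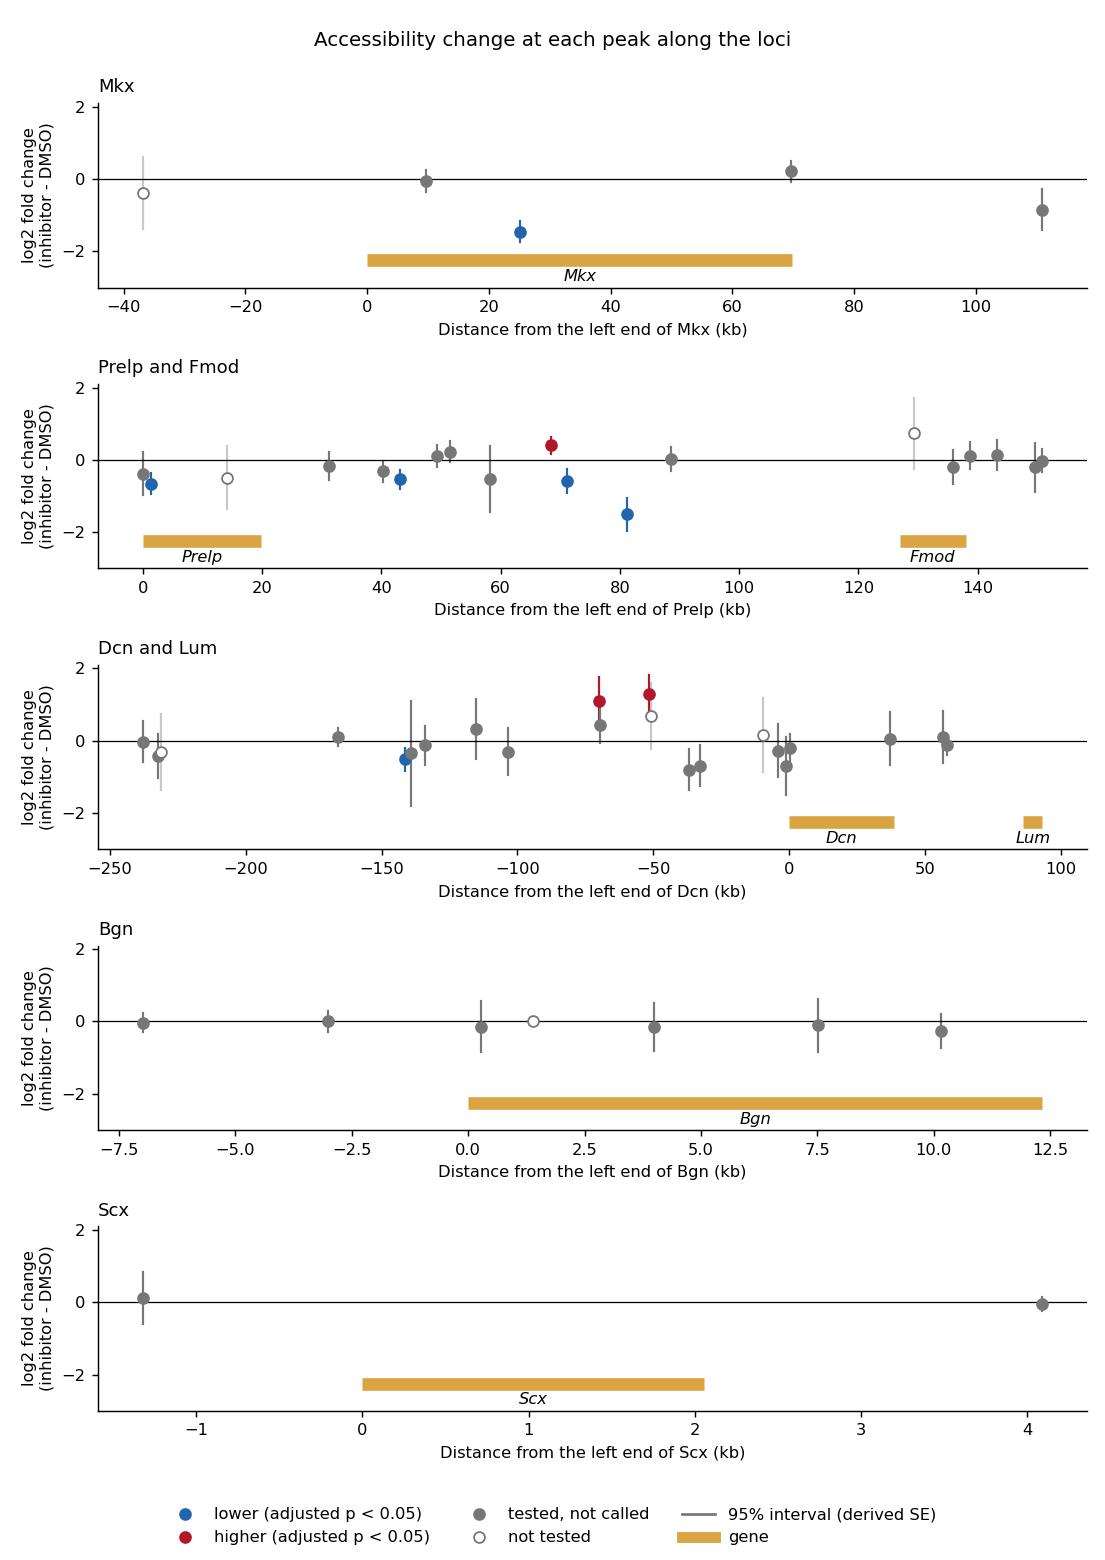
Each point is 1 peak, placed by its distance in kb from the left end of the named gene (x axis) and its log2 fold change, inhibitor minus DMSO (y axis), with the 95% interval from the derived standard error as a line; blue is lower, red higher, grey tested and not called, open not tested, and gold bars are the genes. The Mkx loss stands between uncalled peaks, the Prelp gain has an uncalled peak on its left and a loss on its right, and both Dcn gains lie left of Dcn.

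Fmod (fibromodulin) and Prelp lie 107 kb apart on chromosome 1 and hold 5 of the 9 called peaks, of which 4 lie in the space between the genes. The strongest loss of the members in size was assigned to Fmod, 45.7 kb to its left (133991193 to 133991828). It went from 197 reads with DMSO to 69.1 with inhibitor, a log2 fold change of -1.51 (derived SE 0.23, 95% interval -1.96 to -1.06, adjusted p = 3.06e-08) in the authors' deposited table. The nearest peak on its right, 7.29 kb away, had 104 and 105 reads and a fold of 0.02 (adjusted p = 0.982), and the one on its left, 10 kb away, belonged to Prelp and was lower at -0.59, both in the authors' deposited table.

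At Fmod itself (134037254 to 134048280) no peak passed the test. The peak within 1 kb, centred 746 bp past its 3′ end, had 164 reads with DMSO and 179 with inhibitor and a log2 fold change of 0.12 (adjusted p = 0.871) in the authors' deposited table. Its strongest peak, 12.9 kb past the same end, had 258 and 254 reads (-0.02, adjusted p = 0.981), and the highest tested fold was 0.13 (adjusted p = 0.874) in the authors' deposited table. One peak inside Fmod, 2.31 kb from an end, had 19.4 and 32.2 reads, under the level at which peaks were tested. Its called change was thus at 1 distant site, and the sum over the 8 peaks went from 1062 to 949 reads, a log2 ratio of -0.16.

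Prelp, which encodes a proteoglycan that anchors collagen to basement membranes, held 3 losses and 1 gain among 10 tested peaks. One loss lay inside the gene, 1.42 kb from its 3′ end (133911345 to 133912095): 425 reads with DMSO and 269 with inhibitor, a log2 fold change of -0.66 (derived SE 0.15, adjusted p = 0.000396) in the authors' deposited table. A second lay 23.4 kb from the gene (133953131 to 133953816), at 530 and 365 reads and -0.54 (derived SE 0.13, adjusted p = 0.00171) in the authors' deposited table. The last, 51.4 kb away (133981263 to 133981686), had 309 and 205 reads and -0.59 (derived SE 0.17, adjusted p = 0.0104) in the authors' deposited table. All 3 were smaller than the losses at Mkx and Fmod.

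The Prelp gain lay 48.6 kb from the gene (133978028 to 133979355), 2.78 kb from the last of these losses. It rose from 471 to 622 reads, a log2 fold change of 0.40 (derived SE 0.12, 95% interval 0.17 to 0.63, adjusted p = 0.0158) in the authors' deposited table. Adjacent peaks between the genes thus moved in opposite directions: the gain was followed by -0.59 and, 10 kb on, by the Fmod loss of -1.51 in the authors' deposited table. All 3, and the Fmod peak at 0.02, lie in Bmncr (133977281 to 134006449), a long noncoding RNA gene studied in mouse bone marrow stromal cells. The peak at the 3′ end of Prelp, 6 bp inside the gene, had 77.2 and 59.3 reads and a fold of -0.38 (adjusted p = 0.634) in the authors' deposited table. It is also within 1 kb of Optc, another small leucine-rich proteoglycan gene 0.616 kb away.

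Lum (lumican), a keratan sulfate proteoglycan of cornea and skin, was assigned no peak. A stretch of 52.6 kb around the gene (chromosome 10, 97565501 to 97572703) was free of peaks. The nearest on the left, 27.5 kb away, was assigned to Dcn (log2 fold change -0.13, adjusted p = 0.756), and the nearest on the right, 17.9 kb away, to Kera and was not tested, in the authors' deposited table. Having no peak was not rare: 4117 of 21900 protein-coding genes, or 18.8%, were assigned none.

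Dcn (decorin), which binds collagen and TGF-β, had the most peaks and held both gains of over 1 log2 unit among the members. The stronger gain lay 51.6 kb to its left (chromosome 10, 97427609 to 97428193), at 55.7 reads with DMSO and 135 with inhibitor, a log2 fold change of 1.28 (derived SE 0.27, 95% interval 0.75 to 1.81, adjusted p = 0.000165) in the authors' deposited table. The other lay 70.1 kb away (97409148 to 97409646), at 39.1 and 84.4 reads and 1.11 (derived SE 0.33, 95% interval 0.45 to 1.77, adjusted p = 0.0195) in the authors' deposited table. Both started from low levels, and their mean levels were above those of only 39.3% and 23.3% of tested peaks.

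Each gain had a neighbour under 1 kb away. The peak 0.576 kb from the weaker gain had 84.4 and 114 reads and a fold of 0.43 (adjusted p = 0.413), and the one 0.673 kb from the stronger gain had 23.3 and 37.5 reads, at 0.69 and not tested, in the authors' deposited table. All 4 lie in the long noncoding RNA gene Gm34114, which is 39.8 kb long and ends 50.9 kb from Dcn. Whether the peaks of such a pair are separate accessible sites was not tested.

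Dcn also had 1 loss, 141 kb to its left (97338021 to 97338532), at 393 and 274 reads and -0.52 (derived SE 0.16, adjusted p = 0.024) in the authors' deposited table. This call was lost when folds were scaled to the summed reads or to the median fold, at -0.44 and -0.45. Nearer to the gene than the gains, peaks 36.9 and 32.9 kb away had folds of -0.80 (adjusted p = 0.0684) and -0.69 (adjusted p = 0.153) in the authors' deposited table. The strongest Dcn peak, 166 kb away, had 465 and 498 reads (0.10, adjusted p = 0.811). The end peak, 126 bp inside the left end, had 177 and 153 reads and a fold of -0.21 (adjusted p = 0.723) in the authors' deposited table. All 3 called peaks of Dcn thus lay over 50 kb from it, and its summed reads stood at 2497 and 2374, a log2 ratio of -0.07.

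Bgn (biglycan), the closest relative of Dcn, had no called peak among 6 tested, and its folds in the authors' deposited table lay between -0.26 and 0.01. The peak 282 bp inside its 5′ end (chromosome X, 73483635 to 73484132), which covers the last bases of the promoter shown above, had 56.1 reads with DMSO and 51.3 with inhibitor (-0.14, adjusted p = 0.93) in the authors' deposited table. Its strongest peak, 6.99 kb to the left, had 452 and 440 reads and a fold of -0.03 (95% interval -0.29 to 0.23, adjusted p = 0.964) in the authors' deposited table. The lowest fold of -0.26 (122 and 102 reads, adjusted p = 0.706) and the highest of 0.01 (100 and 101 reads, adjusted p = 0.99) in the authors' deposited table did not pass the test either. The interval at the strongest peak bounds a change there, whereas the weaker end peak allowed anything from -0.84 to 0.56.

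**Figure D3:**
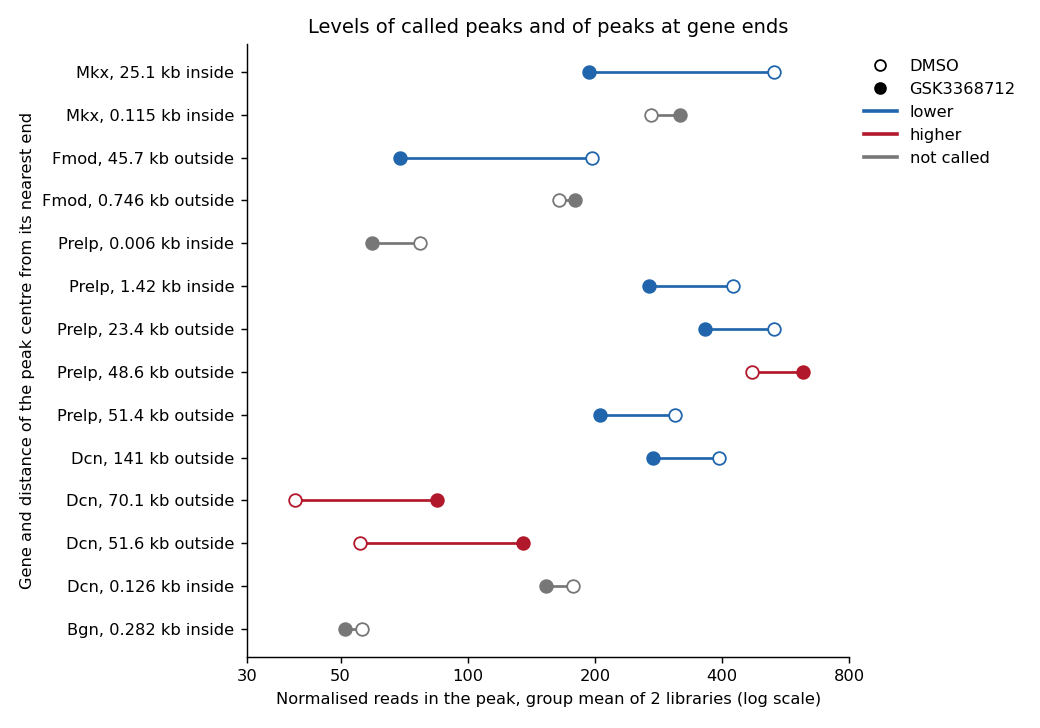
Open circles are the DMSO and filled circles the GSK3368712 group mean of normalised reads (x axis, log scale) for the 9 called peaks and the 5 peaks within 1 kb of a gene end, named by gene and distance (y axis); lines are blue for lower, red for higher and grey for not called. The longest lines are those of the Mkx peak (530 to 194) and the Fmod peak (197 to 69.1), and the end peaks have short grey lines.

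Levels between genes can be compared only per length. Per kb of peak, the DMSO group means were 635 reads at Scx, 368 at Prelp, 341 at Fmod, 309 at Mkx, 272 at Bgn and 214 at Dcn, and with inhibitor 617, 326, 305, 222, 258 and 203. These values are sums of the authors' group means and have no spread over libraries, so no neighbours in the order can be called different. They cover all peaks assigned to a gene, at Dcn up to 238 kb away. At Scx, 982 of the 1025 DMSO reads came from the peak 2.04 kb outside it, which lies inside Bop1.

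The 1 kb limit of the rule fell between the Fmod peak at 0.746 kb (0.12) and the Dcn peak at 1.18 kb from its gene (48.5 and 29.7 reads, -0.70, adjusted p = 0.403) in the authors' deposited table. Both were members, the second through the nearest gene end, so the limit decided only their place. Of the 7 untested members, 6 lay below the lowest mean level of a tested peak (35.8 reads), and 1, inside Bgn, had the same level of 48.5 reads in both groups. That Bgn peak was above the lowest tested level and had a deposited p of 0.999. It counts as untested only by the definition used here.

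Of the 9 called peaks, 5 lay between protein-coding genes and inside a long noncoding RNA gene: the Fmod loss, a Prelp loss and all 3 gains. Those of Fmod and Prelp all lie in Bmncr and those of Dcn in Gm34114, so they are not independent. This grouping was seen after the values were known. Among the 33 tested member peaks between genes, 8 lay in such a gene (24.2%), against 18.2% of 28918 such peaks in the whole table. Of those 8, 2 were lower and 3 higher, where the share over all 5253 peaks of this kind was 7.44% lower and 0.819% higher. Among all called peaks of the whole table, 391 of 4558 lower and 43 of 368 higher ones were of this kind.

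Lists of related genes were described in the same way, and their shares are to be read against those of all tested peaks (6.09% lower, 0.492% higher) and of all genes with a tested peak (18.6% with a lower and 2.17% with a higher peak). Of 13 other small leucine-rich proteoglycan genes, 12 had a tested peak, 4 had a lower and 0 a higher one. The lower ones were Nyx, of the retina (-0.97, adjusted p = 0.00542), Tsku, a secreted signalling modulator (-0.25, adjusted p = 0.00602), Omd, of bone (-0.49, adjusted p = 0.0151), and Podnl1 (-0.43, adjusted p = 0.0471) in the authors' deposited table. Over the list 5 of 38 tested peaks were lower (13.2% against 6.09% of all), with a median fold of -0.09 against -0.07.

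Most peaks of other tendon differentiation and collagen fibril genes were not called. Of 26 genes, 25 had a tested peak, 8 a lower and 4 a higher one, and 14 of 202 peaks were lower (6.93%, near the 6.09% of all) and 7 higher (3.47% against 0.492%), with a median fold of -0.08. A single gene, Col5a1, had both. Col5a1, whose collagen V starts fibrils, had a peak 39.1 kb outside that rose from 141 to 357 reads (1.34, derived SE 0.18, adjusted p = 2.33e-10) in the authors' deposited table. Other Col5a1 peaks rose at 1.22 (adjusted p = 0.0234) and 0.73 (adjusted p = 0.046) in that table. Those that fell were at -0.75 (adjusted p = 0.00198) and -0.78 (adjusted p = 0.00784). Egr1, a factor of tendon repair, had a peak at -1.30 (208 to 84.4 reads, adjusted p = 1.4e-06) in the authors' deposited table. Col11a1, a minor fibril collagen, had -0.77 (adjusted p = 2.42e-05) and Lox, which cross-links collagen, -0.82 (adjusted p = 3.09e-05) in the authors' deposited table.

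Among 17 TALE homeobox relatives of Mkx, 16 had a tested peak, 3 a lower and 0 a higher one. Tgif1, a repressor in TGF-β signalling, had -0.42 (adjusted p = 0.000179) and Irx1 -0.64 (adjusted p = 0.0466) in the authors' deposited table. The list had 5 of 107 peaks lower (4.67% against 6.09% of all) and a median of -0.10. Of 10 helix-loop-helix relatives and partners of Scx, 8 had a tested peak, 4 a lower and 1 a higher one (5 and 1 of 75 peaks, median -0.08). Its 6.67% lower peaks were near the 6.09% of all. Hand1 had -1.29 (adjusted p = 0.000311), Twist2 -0.82 (adjusted p = 7.42e-05) and Tcf3 -0.88 (adjusted p = 0.0229), and Tcf4 held both 0.78 (adjusted p = 0.00148) and -0.36 (adjusted p = 0.00669) in the authors' deposited table.

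Signals that act upstream of tendon factors had a lower peak at 9 and a higher one at 1 of 22 genes. Of their 234 tested peaks 28 were lower (12% against 6.09% of all) and 1 higher (0.427%, near the 0.492% of all), with a median of -0.12. Spry2, an inhibitor of FGF signalling, held the loss of smallest adjusted p, 227 kb away, at -0.96 (478 to 246 reads, adjusted p = 8.16e-09) in the authors' deposited table. Smad3, which carries the TGF-β signal, had -0.86 (adjusted p = 5.7e-06), Sox9, the cartilage factor, -0.61 (adjusted p = 9.12e-06), and Tgfbr3, the TGF-β co-receptor, -1.10 (adjusted p = 0.00203) in the authors' deposited table. Several of these peaks share a gene, so they are not independent.

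Of 17 receptors and partners of the proteoglycans, 16 had a tested peak, 5 a lower and 0 a higher one (5 of 137 peaks, 3.65% against 6.09% of all, median -0.14). Met, a receptor bound by decorin, had -1.27 (242 to 101 reads, adjusted p = 6.24e-08), Lrp1, an endocytic receptor, -0.91 (adjusted p = 0.000124), Kdr, a VEGF receptor, -0.48 (adjusted p = 0.000885) and Tlr2, a receptor for biglycan, -0.54 (adjusted p = 0.00222) in the authors' deposited table. Of 20 genes of chondroitin and keratan sulfate synthesis, 19 had a tested peak, 6 a lower and 1 a higher one (8 and 1 of 113 peaks, median -0.09). Its shares of 7.08% and 0.885% were near the 6.09% and 0.492% of all. The higher one was at an end of Chst2, a sulfotransferase of keratan sulfate, from 537 to 803 reads (0.58, derived SE 0.12, adjusted p = 6.08e-05), and Ust (-0.89, adjusted p = 0.000335), Csgalnact1 (-0.85, adjusted p = 0.0158) and Chst3 (-0.91, adjusted p = 0.0273) were lower in the authors' deposited table.

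**Figure D4:**
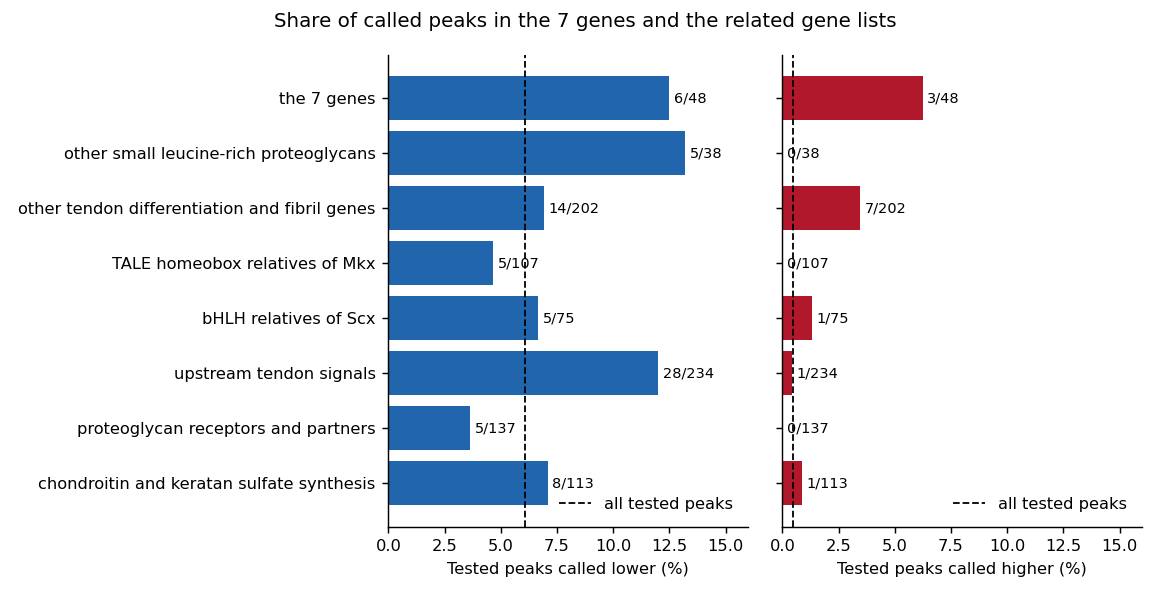
Bars give the share (x axis, percent) of tested peaks called lower (left, blue) or higher (right, red) for the 7 genes and each related list (y axis), with called over tested peaks beside each bar; the dashed line is the share over all tested peaks. Lower shares run from 3.65% to 13.2%, and 3 lists have no higher peak.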

How the data were processed

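Per the labels' protocols, nuclei were tagmented with a Nextera kit and the DNA was amplified over 10 PCR cycles. Reads were handled on mm10 with DiffBind 2.8.0, DESeq2, MACS2 2.1.1.20160309, HISAT2 2.1.0 and Picard 1.113, per the submitters' processing notes, but how these were set is not stated. A single deposited table holds 97699 peaks. Its levels are log2 group means of normalised reads, as deposited by the authors, and its fold is a log2 difference, turned here to inhibitor minus DMSO. The p-value and its adjusted form come from the authors' comparison, per the file headers. The number of libraries in which a peak was called is another deposited column pair, summed here because the header does not name the group.

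The table holds no values per library, so no new test was made. Normalised reads are 2 to the power of the level, and the SE is the fold divided by the normal quantile of its two-sided p, with 95% intervals of 1.96 SE. Peaks were placed on RefSeq genes of GRCm38.p6 (mm10) by their centres, with Python 3.11.15, pandas 2.3.3, numpy 2.4.6 and scipy 1.17.1. The SE, the scaling shift and the p adjustment were tried on simulated folds whose p-values followed the same normal formula. The placing of peaks and the motif search were not tested in this way. Depth per library is unknown; the median SE was 0.41 in the lowest and 0.08 in the highest of 10 level bins. The text names every called peak, every peak within 1 kb of a gene end, the strongest, lowest and highest peak per gene, and up to 4 genes per list by adjusted p; 1 gene that this rule names is not reported here. Other peaks named were picked after their values were seen, as neighbours of these or as marginal cases. Members and lists were chosen with earlier results of these data known.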

Additional observations from a re-analysis of the deposited data

How the results depend on the processing

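No paired analysis was possible because the deposited table holds group means and no values per library, and for the same reason leaving out single libraries could not be run. With 20 reads added to both means only the fold was recomputed, and its sign could not change by this step. The Mkx loss then stood at -1.36, the Fmod loss at -1.28 and the Dcn gains at 1.04 and 0.82. Of the 9 called member peaks, 8 kept their call under both scalings and with p-values adjusted over every peak. The exception was the Dcn loss, which no longer passed at -0.44 (summed reads) and -0.45 (median fold). Under these scalings, which take a shift of -0.08 and -0.07 out of all folds, the sign turned at 5 of the 48 tested member peaks, none of them called. Of these, 3 were named by the rule: the strong Scx peak had 0.03 and 0.02, the strongest Fmod peak 0.06 and 0.05, and the strongest Bgn peak 0.05 and 0.04. Over all peaks the lower and higher counts were 2698 and 624 with summed reads, 2848 and 579 with the median fold, 2608 and 173 at an adjusted p under 0.01, and 981 and 78 with a change of at least 1 log2 unit, against 4558 and 368. Among the 48 tested members the higher count of 3 became 1 at an adjusted p under 0.01. It was 1 of 21 peaks at or above the median level and 1 of 36 inside or within 50 kb of the genes. Of the 21 peaks 6 were lower, and of all 37474 peaks at or above the median level 3676 were lower and 304 higher. With at least 1 log2 unit 2 member peaks were lower. Inside or within 1 kb of the genes 2 of 13 were lower and 0 higher. With the nearest gene of any kind 3 of 25 were lower and 0 higher, because peaks nearer to a gene of another kind then leave the set. These counts fell along with the number of peaks, and the shares over all peaks under these distance rules are not given here. Other settings moved the member counts by at most 1.5 times. Weak peaks limit the precision, and a change smaller than their interval was not detectable.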

Other observations

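Of 45 tested peaks at 9 protein-coding neighbours of the 7 genes, 1 was lower (2.22% against 6.09% of all tested peaks) and 0 higher. This set is not separate from the members. By the rule, both Scx peaks also fall to Bop1, which they lie inside, and the Prelp end peak also falls to Optc. Optc, a small leucine-rich proteoglycan of the eye that adjoins Prelp, had 7 tested peaks and none called, with -0.77 (adjusted p = 0.0885) as the peak of smallest p in the authors' deposited table. Btg2, an antiproliferative gene on the other side of Fmod, had 0 of 5 called and a peak at 0.65 just short of the threshold (adjusted p = 0.0502) in the authors' deposited table. Beside Mkx, Armc4 had 2 tested peaks and none called, and Rab18, a small GTPase gene, had 1 of 4 lower, at -0.40 (adjusted p = 0.00248) in the authors' deposited table. Kera and Epyc, proteoglycan genes beside Lum and Dcn, each had 1 tested peak, at 0.13 and -0.19 and neither called. Bop1, which encloses Scx, had 10 tested peaks and none called, and Haus7 and Atp2b3 near Bgn had 6 and 9 and none called.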
